A study of Homo sapiens with 17 samples.

Results

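The stretch of human chromosome 12 from 7.5 to 8.1 Mb (GRCh38) holds 3 genes of pluripotent cells, *GDF3*, *DPPA3* and *NANOG*, beside *APOBEC1* and the glucose transporter genes *SLC2A14* and *SLC2A3*. These 6 genes, of 20007 protein-coding genes, were followed with promoter capture Hi-C (PCHi-C), Hi-C and the histone mark H3K4me1. The interaction lists mark a fragment as captured (a bait) but carry no gene names, so that each gene was matched by position, through the HindIII restriction fragment that holds its transcript start in GENCODE release 44. A match by the names of the capture design was not possible here. By position, only *GDF3* and *DPPA3*, 2 of the 6 genes, had a promoter fragment among the 15982 baits of either list. No annotated start of *NANOG* (4 transcripts), *SLC2A14* (21), *SLC2A3* (14) or *APOBEC1* (2) lay on a listed bait, and whether those fragments had been captured could not be read from the lists. For H3K4me1, the interval held 1200 of the 6176584 tiles of 500 bp.

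NANOG is a homeodomain transcription factor of the core pluripotency network, and DPPA3 (also called STELLA) is an oocyte and early embryo protein that limits maintenance of DNA methylation. GDF3 is a TGF-beta family ligand that acts with the NODAL pathway. SLC2A3 and SLC2A14 are closely related facilitative glucose transporters (GLUT3 and GLUT14) that arose by duplication, and APOBEC1 is a cytidine deaminase known for editing apolipoprotein B mRNA. H3K4me1 is a histone modification found at enhancers, active or poised, and around active promoters. In PCHi-C, neighbouring DNA ends of the folded chromosome are joined, and joined pairs that include a promoter are enriched by capture.

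The cells were the isogenic human embryonic stem cell line H9 NK2, kept without feeder cells either as naive pluripotent stem cells (PSCs) in t2iL+PKCi medium (PD0325901, CHIR99021, LIF and Go6983, on Matrigel) or as primed PSCs in TeSR-E8 on vitronectin. Naive PSCs resemble the pre-implantation epiblast and primed PSCs the post-implantation one, and both groups come from 1 cell line. PCHi-C had 2 replicates per cell type, combined by the authors into 1 list per cell type, Hi-C had 1 library per cell type, and H3K4me1 was profiled by CUT&RUN, in which antibody-tethered nuclease releases marked chromatin, with 2 libraries of naive and 3 of primed PSCs.

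The H3K4me1 libraries held 6743809 to 26596518 reads. As a check of the labels, the promoter fragment of the naive marker *DPPA5* had more H3K4me1 in naive PSCs (a difference of 2.78 in log2 RPM, the log2 of reads scaled to the library total, limma adjusted p = 7.55e-04) and 5 naive against 0 primed contacts, while the primed markers *OTX2* and *DUSP6* had 0 naive and 15 and 35 primed contacts. At *DPPA5* no primed library was above the filter for testing (log2 RPM above 0 in at least 2 libraries). Its H3K4me1 could therefore only be called higher in naive PSCs. At *DUSP6* no naive library was above the filter, so that it could only be called lower in naive PSCs. H3K4me1 at *OTX2* (-0.03), *DUSP6* (-0.57) and *KLF17* (0.61) did not pass the test in limma, while edgeR called *DUSP6* lower in naive PSCs (-0.71, edgeR adjusted p = 0.00749), *SUSD2* and *ZIC2* fell under the filter, with 3 naive and 2 primed contacts at *SUSD2*, 7 and 14 at *ZIC2* and 1 and 1 at *KLF17*, and no RNA was measured in these files.

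To show where the contacts and marks described here fall, sequences are given for the promoters of the 3 pluripotency genes and for the short fragment downstream of *NANOG* that both baits contacted. Promoters are 300 bases around the annotated start in the direction of the gene, from RefSeq (GRCh38.p14), which matched 5 of the 6 genes. Capitals mark the octamer word TTTGCAT, part of the sequence that OCT4 binds, and the word ACAATG, of the kind that SOX proteins bind, on either strand. These words were chosen after the *NANOG* promoter had been read.

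NANOG promoter, chr12:7789152-7789451, plus strand: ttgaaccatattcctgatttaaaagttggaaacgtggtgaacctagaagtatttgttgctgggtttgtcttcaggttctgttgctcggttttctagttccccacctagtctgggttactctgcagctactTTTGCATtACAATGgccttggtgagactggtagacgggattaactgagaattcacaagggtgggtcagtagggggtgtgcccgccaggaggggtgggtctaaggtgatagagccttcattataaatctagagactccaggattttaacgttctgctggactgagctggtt

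DPPA3 promoter, chr12:7711183-7711482, plus strand: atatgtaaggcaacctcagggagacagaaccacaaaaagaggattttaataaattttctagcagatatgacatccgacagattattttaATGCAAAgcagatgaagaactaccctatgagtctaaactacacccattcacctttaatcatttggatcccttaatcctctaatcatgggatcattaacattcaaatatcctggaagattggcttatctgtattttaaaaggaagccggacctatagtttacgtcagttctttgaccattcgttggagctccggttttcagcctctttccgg

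GDF3 promoter, chr12:7695726-7696025, minus strand: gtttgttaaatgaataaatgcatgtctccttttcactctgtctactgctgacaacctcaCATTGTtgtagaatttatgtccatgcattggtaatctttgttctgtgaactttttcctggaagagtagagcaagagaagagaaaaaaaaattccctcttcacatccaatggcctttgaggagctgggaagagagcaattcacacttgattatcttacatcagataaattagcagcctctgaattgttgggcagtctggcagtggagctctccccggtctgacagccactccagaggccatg

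Fragment downstream of NANOG, chr12:7801188-7801416, plus strand: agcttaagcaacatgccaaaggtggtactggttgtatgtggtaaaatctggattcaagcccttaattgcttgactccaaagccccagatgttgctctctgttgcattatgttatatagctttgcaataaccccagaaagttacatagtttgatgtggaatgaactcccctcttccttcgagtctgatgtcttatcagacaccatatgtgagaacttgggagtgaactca

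In the *NANOG* promoter the octamer word was followed after 1 base by the SOX word, an arrangement found in 3 of 35116 promoters of the table (0.00854%), the others being those of *NRARP* and *LOC105370047*. As the words were chosen after this promoter had been read, that share is a description and not a test. The *DPPA3* promoter held 1 octamer word and the *GDF3* promoter 1 SOX word, both read on the strand opposite to the gene. The *APOBEC1* promoter held 2 octamer words and that of *SLC2A14* neither word. The octamer word was present in 4.46% and the SOX word in 10.8% of all promoters. The fragment downstream of *NANOG*, of 229 bp, held neither word, which were in 6.30% and 13.6% of consecutive windows of that length along chromosome 12.

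The promoters of *GDF3* and *DPPA3* contacted each other and the region just downstream of *NANOG* in both pluripotent states, and *DPPA3* alone had distant contacts that were listed in primed PSCs only. Together the 2 baits had 10 contacts in naive and 10 in primed PSCs, of which 7 were in both lists, a ratio of 1.00 with a 95% interval from counting error of 0.37 to 2.68. The shared contacts made 70.0% of the contacts in either list (95% Wilson interval 39.7 to 89.2%), beside 49.6% of all naive and 44.2% of all primed interactions. Apart from the contact between the 2 baits, the shared contacts all joined these neighbouring baits to the same run of adjoining fragments. Both intervals take contacts as independent, which these were not. With 1 combined list per cell type, no test of a difference in contacts was possible, and a contact missing from a list may have had reads with a score below 5, the least listed.

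*GDF3* (ENSG00000184344.4, chr12:7689784-7695775, minus strand) had 5 contacts in naive and 4 in primed PSCs. *DPPA3* (ENSG00000187569.3, chr12:7711433-7717559, plus strand) had 6 and 7. The median bait had 3 contacts in each list, so that *GDF3* stood above 63.5% of baits in the naive list and 56.1% in the primed list, and *DPPA3* above 68.8% and 71.6%. Neither gene was among the most connected baits.

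The *GDF3* bait (chr12:7690670-7696124) and the *DPPA3* bait (chr12:7701551-7715273) were linked by 192 reads (CHiCAGO score 5.60) in the naive list and 222 reads (score 5.46) in the primed one. The score rises with how far the reads exceed those expected at that distance, and the reads are the authors' combined and rounded number. The middles of these 2 fragments lie 15 kb apart, and their score was low beside the read number in both cell types.

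**Figure D1:**
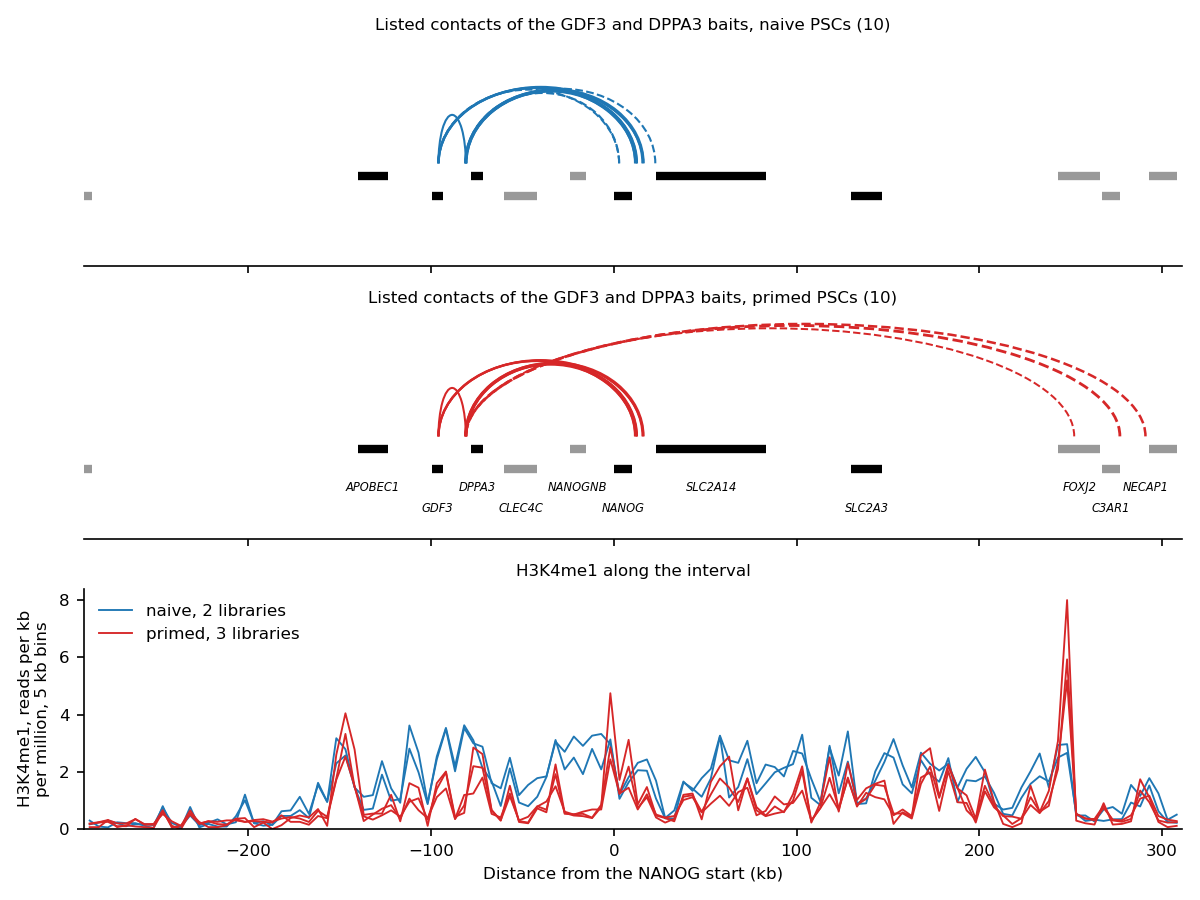
The 10 listed contacts of the *GDF3* and *DPPA3* baits in naive (top) and primed (middle) PSCs are drawn as arcs over distance from the *NANOG* start in kb, with wider lines for higher scores, dashed lines for contacts in 1 list only, and genes as bars (black for the 6 genes followed). Below, H3K4me1 is given in RPM per kb in 5 kb bins, 1 line per library. Arcs over 300 kb appear in primed PSCs only.

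A run of 3 adjoining fragments downstream of *NANOG* were contacted by both baits in both cell types. The nearest of them is the fragment of 229 bp printed above (chr12:7801188-7801416), whose middle lies 11.9 kb from the *NANOG* start, in no annotated protein-coding gene. *DPPA3* contacted it with 69 reads (score 13.77) in naive and 73 reads (score 14.37) in primed PSCs. *GDF3* contacted it with 27 reads (score 8.86) in naive and 36 reads (score 7.75) in primed PSCs. For this fragment the read numbers were higher in the primed list for either bait, while the scores moved in opposite directions.

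The next fragment, chr12:7801417-7802586, had 43 reads (score 7.46) in naive and 36 reads (score 7.39) in primed PSCs from *DPPA3*. From *GDF3* it had 19 reads (score 5.58) and 22 reads (score 5.12). The last of the 3, chr12:7802587-7808198, had 67 reads (score 14.46) in naive and 60 reads (score 13.07) in primed PSCs from *DPPA3*, and 23 reads (score 7.68) and 26 reads (score 5.81) from *GDF3*. In each list the *DPPA3* bait, which is the longer one and the closer one, scored higher than the *GDF3* bait at all 3 fragments. Contacts with adjoining fragments share their bait and are not independent of each other.

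**Figure D2:**
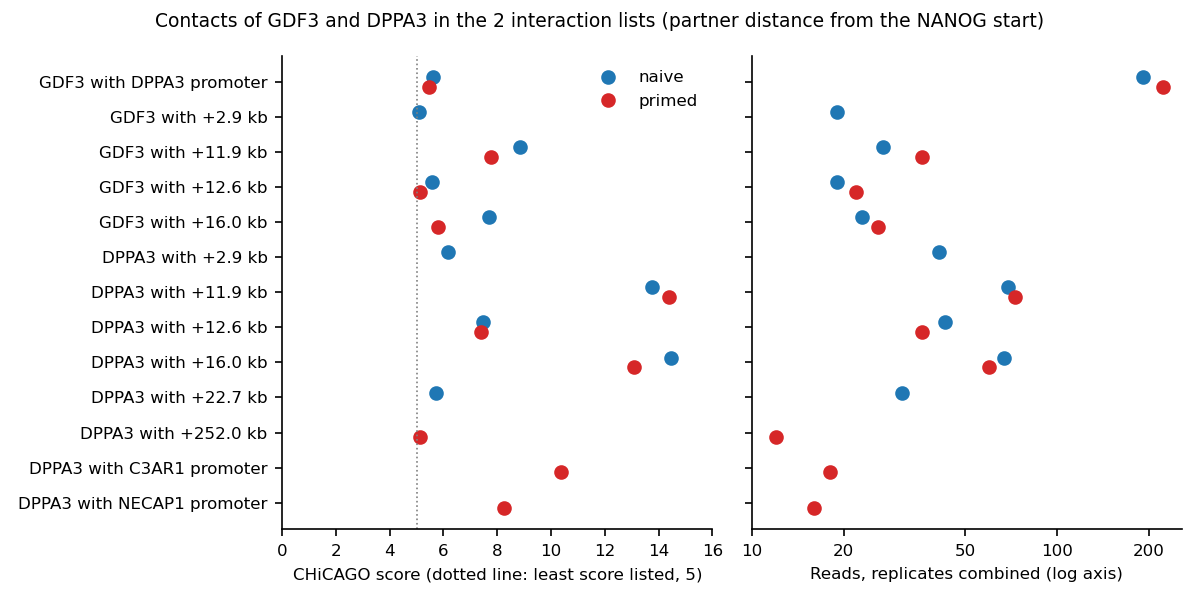
Each row is 1 contact of *GDF3* or *DPPA3*, named by the distance of the partner from the *NANOG* start or by the gene that starts in it, with its CHiCAGO score (left) and combined reads on a log axis (right) in naive (blue) and primed (red) PSCs. The 3 lowest rows, contacts of *DPPA3*, have a primed point only.

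Contacts with the *NANOG* gene itself were listed in naive PSCs only. The fragment chr12:7791835-7792790, within *NANOG* and 2.91 kb past its start, was contacted by *DPPA3* with 41 reads (score 6.18) and by *GDF3* with 19 reads (score 5.08). *DPPA3* also contacted chr12:7808199-7815964, which reaches into the 3′ end of *SLC2A14*, with 31 reads (score 5.73). All 3 naive-only contacts had scores near the limit of 5, and with a score of at least 7 required, 4 of 5 naive and 4 of 6 primed contacts were shared, and no contact with *NANOG* or *SLC2A14* was listed. When partners within 10 kb were allowed to match, 100% of the naive contacts had a primed counterpart, against 70.0% of the primed contacts with a naive one.

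The 3 primed-only contacts belonged to *DPPA3* and lay at the far end of the interval. The strongest joined it to the bait of *C3AR1* (chr12:8062072-8069946), the receptor for complement fragment C3a, with 18 reads over 358 kb and a score of 5.5 seen from *DPPA3* and 10.38 seen from *C3AR1*. The fragment with the start of *NECAP1* (chr12:8078457-8082980), an adaptor protein of clathrin-coated vesicles, had 16 reads and a score of 8.25 over 372 kb. A fragment within *FOXJ2* (chr12:8039909-8042875), a forkhead transcription factor gene, had 12 reads and a score of 5.12 over 333 kb. These read numbers were below those of every contact near *NANOG*, which lay within 112 kb of its bait.

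Other baits of the neighbourhood also differed between the lists, and 9 naive and 16 primed contacts that touched the interval involved neither *GDF3* nor *DPPA3*, with 2 of them in both. A bait at an alternative start of *NANOGNB*, the NANOG neighbour homeobox gene, had 1 contact in primed PSCs, with chr12:7720752-7725162 just past *DPPA3* (29 reads, score 6.11), and 0 in naive PSCs. *C3AR1* had a primed contact with chr12:7735847-7737638, which holds a start of *CLEC4C* (10 reads, score 6.31). In naive PSCs *C3AR1* and *FOXJ2* were instead linked to each other by 56 reads (score 7.13), and *FOXJ2* to the *NECAP1* fragment by 39 reads (score 5.21), neither of which was in the primed list.

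Hi-C, which uses no capture, was counted in pairs of 100 kb bins, with 15 pairs inside the interval. The naive library held 816 and the primed library 1022 di-tags in these pairs, and after scaling by all contacts between adjacent bins of the genome the naive over primed ratio was 0.93 (95% interval from counting error 0.85 to 1.03). There is 1 Hi-C library per cell type, so that no test between cell types was possible and intervals cover counting error only. Within the interval, 2 of the 15 pairs were at least 2-fold higher in primed PSCs and 0 at least 2-fold higher in naive PSCs, beside 1.49% and 2.31% of all bin pairs 100 to 500 kb apart.

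Both of these pairs joined the last bin (8.0 to 8.1 Mb, with *FOXJ2* and *C3AR1*) to the start of the interval. The bin from 7.6 to 7.7 Mb, which holds the starts of *APOBEC1* and *GDF3*, had 45 naive and 110 primed di-tags with it, a scaled ratio of 0.48 (0.33 to 0.68). The bin from 7.5 to 7.6 Mb had 15 and 48, a ratio of 0.37 (0.19 to 0.66). The bin of *DPPA3* and *NANOG*, from 7.7 to 7.8 Mb, had 49 and 84 with the last bin, a ratio of 0.68 (0.47 to 0.98).

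Grouped after the values had been seen, the last bin with the bins of *GDF3*, *DPPA3*, *NANOG* and *SLC2A14* gave 133 naive and 255 primed di-tags, a ratio of 0.61 (0.49 to 0.76). Those 3 bins with each other gave 327 and 348, a ratio of 1.10 (0.94 to 1.28). The primed-only PCHi-C contacts of *DPPA3* ended in this same last bin. In the paper's methods promoter capture starts from Hi-C library DNA, so that both readouts may share material and are not taken as independent. The pair of the last bin with its nearest neighbour, which holds *SLC2A3*, gave 75 naive and 66 primed di-tags (ratio 1.33, 0.94 to 1.88).

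**Figure D3:**
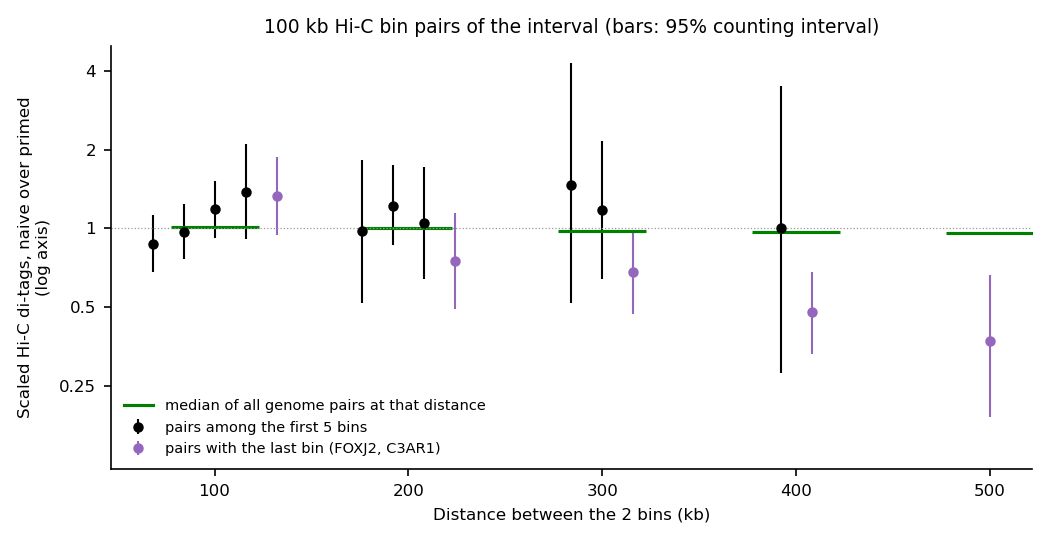
Scaled naive over primed Hi-C ratios (log axis) of the 15 bin pairs are plotted by distance between the bins in kb, with 95% counting intervals as bars. The genome median at each distance, over pairs listed in both libraries, is in green. Points at 1 distance are moved sideways so that they do not overlap. Pairs with the last bin (purple) range from 1.33 at 100 kb to 0.37 at 500 kb.

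H3K4me1 was higher in naive PSCs over most of the interval, with the largest ratios over 50 kb at *APOBEC1*, *GDF3* and *DPPA3*, and *FOXJ2* in the opposite order. The naive libraries had 1.35 and 1.59 RPM per kb over the interval, and the primed libraries 1.00, 0.788 and 0.859. Each naive library lay above all primed ones, and the ratio of the means (1.47 and 0.882) was 1.67, above that of 87.6% of 4766 windows of 600 kb, whose median ratio was 0.92. In 30.6% of those windows both naive libraries were above all primed libraries.

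As the mean log2 RPM of all 1200 tiles, the naive libraries stood at -1.36 and -0.91 and the primed ones at -1.89, -1.85 and -1.99. The difference of 0.78 had a two-sided exact permutation p = 0.100, which is the smallest p that 5 libraries split 2 against 3 can give (0.1). Empty tiles stand at a value set by depth, and made 1.5 to 28.7% of the interval's tiles, fewest in the 2 deepest libraries. In bulk libraries, fewer marked cells and less mark per cell cannot be told apart.

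In 12 windows of 50 kb, both naive libraries were above all primed ones in 9, below in 0 and overlapping in 3, beside 28.1% of such windows above and 39.4% below genome-wide. The largest ratio, 2.21, was in the window of *APOBEC1* and *GDF3* (7.65 to 7.7 Mb), with 1.71 and 2.02 RPM per kb in the naive libraries and 0.983, 0.732 and 0.809 in the primed ones. The next, 2.19, was in the window of *DPPA3* (1.85 and 2.14 against 1.01, 0.806 and 0.917). The ratio was 1.94 in the window with the start of *NANOG*, 2.06 in that of *SLC2A14* and 1.71 in that of *SLC2A3*. The window of *NANOG* also holds *NANOGNB*. Over the body of *NANOG* alone the naive libraries were not above the primed ones (1.24 and 1.37 against 2.39, 1.36 and 1.59). The windows that overlapped were the first of the interval (ratio 1.06), that from 7.6 to 7.65 Mb (1.25) and that from 8.0 to 8.05 Mb (1.09). The window from 7.6 to 7.65 Mb reaches into the 3′ end of *APOBEC1*, and that from 8.0 to 8.05 Mb holds most of *FOXJ2*.

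Of the 1200 tiles, 313 passed the filter for testing (log2 RPM above 0 in at least 2 libraries). In limma with Benjamini-Hochberg adjustment over 465156 tiles of the genome, 122 of these were higher in naive and 9 in primed PSCs, beside 26.1% and 25.9% of all tested tiles. A tile could pass the filter through the group in which it was high. In 120 of the 313 no primed library was above the filter, so that these could only differ towards naive PSCs, and in 16 no naive library was. Without any filter, 196 of the 1200 tiles were higher in naive and 7 in primed PSCs, beside 4.19% and 3.78% of all tiles, and the median difference of the 1200 tiles was 0.71 against 0.02 for all tiles. With either naive replicate left out, 1 naive library remained and fewer tiles were called higher in naive PSCs. Without naive replicate 2 their share was no longer above that of all tested tiles. The median difference of the 313 tiles was then 0.82, beside 0.14 for all tested tiles, and 0.85 beside 0.06 without naive replicate 1. With primed replicate 1, 2 or 3 left out, 134, 120 and 90 tiles were higher in naive PSCs, beside 29.0%, 27.3% and 19.7%. The primed counts were 5, 15 and 3, beside 22.4%, 29.6% and 19.6%. The p-values measure the spread between these libraries of 1 cell line.

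**Figure D4:**
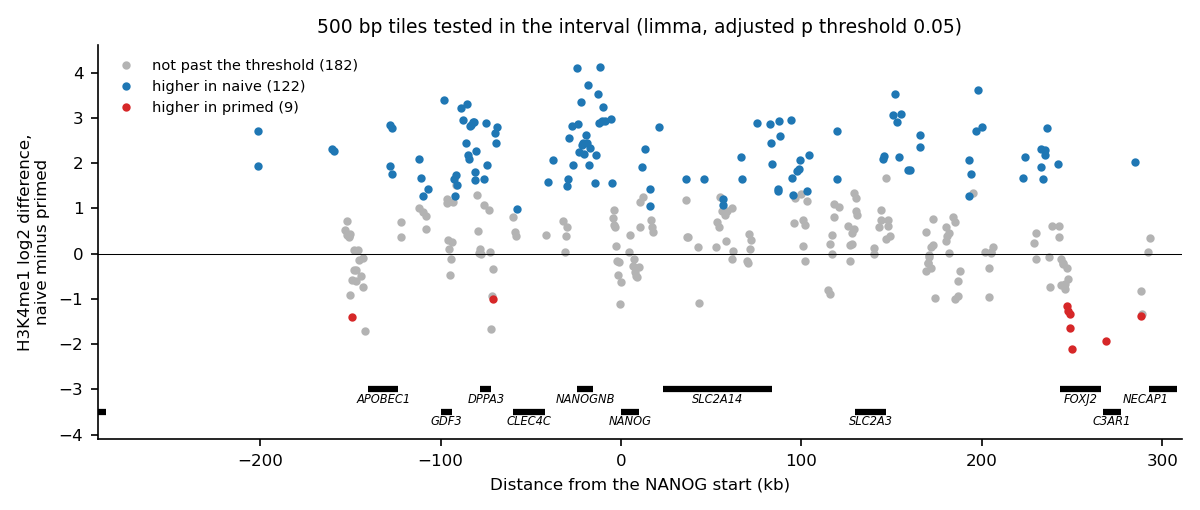
The log2 H3K4me1 difference (naive minus primed) of the 313 tested tiles is plotted by distance from the *NANOG* start in kb, with the 122 tiles higher in naive PSCs in blue, the 9 higher in primed PSCs in red and the others in grey. The tallest blue points lie over *NANOGNB* and between it and *NANOG*, and most red points lie over *FOXJ2*.

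The 5 tiles with the largest naive differences included 4 at or near *NANOGNB* (chr12:7765216-7774121). The tile chr12:7777501-7778000, between *NANOGNB* and *NANOG*, had log2 RPM values of 0.41 and 1.25 in naive and -3.15, -2.98 and -3.73 in primed libraries, a difference of 4.12 ± 0.54 (SE, limma adjusted p = 1.03e-04). In the primed libraries this tile was close to the value of an empty one. The tile chr12:7765001-7765500, at the first exon of *NANOGNB*, had 0.95 and 1.25 against -3.15, -3.13 and -2.73, a difference of 4.10 ± 0.56. Tiles at chr12:7771001-7771500, in a *NANOGNB* intron (3.73 ± 0.55), at chr12:7776501-7777000 (3.53 ± 0.66) and, far from it, at chr12:7987001-7987500, between *SLC2A3* and *FOXJ2* (3.61 ± 0.59), made up the rest. Of the 18 tiles with their middle in *NANOGNB*, 12 were tested. In each of these, and in each tile named here outside the gene, no primed library was above the filter. The direction of any difference in these tiles was therefore fixed by the filter, though not whether a tile passed the test. Without it, 13 of the 18 were higher in naive and 0 in primed PSCs, beside 4.19% and 3.78% of all tiles. Values near that of an empty tile also make these differences large, and with 0.5 RPM added to every value the difference of 4.12 was 1.92.

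*NANOG* itself did not follow its neighbour. Over the gene (ENSG00000111704.11, chr12:7789402-7799146, plus strand) the naive libraries had 1.24 and 1.37 RPM per kb and the primed libraries 2.39, 1.36 and 1.59. The lowest primed value lay between the naive ones. Of its 7 tested tiles, limma called 0 in either direction (0 at unadjusted p under 0.05, and 0 by edgeR on the recovered reads), and of the 5 tested tiles within 2.5 kb of its start it also called 0, with 1 lower in naive PSCs at unadjusted p under 0.05 and 0 by edgeR. Of its sequence, 40.6% of the words of 31 bases occur elsewhere in the genome, and reads from those places cannot be assigned with certainty.

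The other genes followed include *APOBEC1* (ENSG00000111701.7, chr12:7649400-7665908), *SLC2A14* (ENSG00000173262.12, chr12:7812514-7872915) and *SLC2A3* (ENSG00000059804.17, chr12:7919230-7936187), all on the minus strand. Over their bodies and those of the baited genes, limma called 4 of 4 tested tiles higher in naive PSCs at *APOBEC1*, 1 of 8 at *GDF3*, 3 of 8 at *DPPA3*, 9 of 30 at *SLC2A14* and 2 of 10 at *SLC2A3*, beside 26.1% of all tested tiles. Together these were 19 of 60, and the shares at *GDF3* and *SLC2A3* lay below that of all tested tiles. In 20 of the 60 no primed library was above the filter. Without the filter, 27 of the 212 tiles of these genes were higher in naive PSCs and 0 in primed PSCs, beside 4.19% and 3.78%. No tile of these genes was called higher in primed PSCs, with 1 of 60 at unadjusted p under 0.05 and 1, at *DPPA3*, by edgeR on the reads recovered from the log2 RPM values. Shared sequence was widespread in the transporter pair, with 40.0% of the words of *SLC2A14* and 34.1% of those of *SLC2A3* repeated elsewhere.

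*FOXJ2* (chr12:8032716-8055517) had more H3K4me1 in primed PSCs. Its body had 1.15 and 1.36 RPM per kb in naive and 2.39, 1.85 and 1.93 in primed libraries, with each primed library above both naive ones. Of its 14 tested tiles, 5 were higher in primed PSCs and 0 in naive PSCs, with limma giving 0 naive at unadjusted p under 0.05 and edgeR 0, beside 25.9% and 26.1% of all tested tiles. In 2 of the 14 no naive library was above the filter. Without the filter 6 of the 46 tiles of *FOXJ2* were higher in primed and 0 in naive PSCs, beside 3.78% and 4.19%. The tile chr12:8039001-8039500, in an intron, had -0.36 and -1.17 in naive and 2.10, 1.02 and 0.91 in primed libraries, a difference of -2.11 ± 0.49 (limma adjusted p = 0.00227). No naive library was above the filter in this tile, so that it could only differ towards primed PSCs. Its neighbour chr12:8038501-8039000 had 0.51 and 0.83 against 2.69, 2.23 and 2.04, a difference of -1.65 ± 0.37 (limma adjusted p = 0.00188). Both tiles lie in the *FOXJ2* bait, whose neighbouring fragment is a primed-only partner of *DPPA3*.

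The other primed tiles named by size were at an exon of *C3AR1* (chr12:8058501-8059000, -1.94 ± 0.69, limma adjusted p = 0.0276), near *NECAP1* (chr12:8077501-8078000, -1.37 ± 0.55, limma adjusted p = 0.0465) and at chr12:7640001-7640500 (-1.40 ± 0.55, limma adjusted p = 0.0435), where 71.0% of the words are repeated. In each of these tiles no naive library was above the filter, so that they could only differ towards primed PSCs. All 3 calls were lost without naive replicate 1 and without primed replicate 3. That at *C3AR1*, which was -0.89 without naive replicate 1, and that near *NECAP1* were also lost without primed replicate 1, and the 2 calls outside *C3AR1* without naive replicate 2 or without the filter.

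At the level of HindIII fragments, those with the starts of *GDF3* (5455 bp) and *DPPA3* (13723 bp) had more H3K4me1 in naive PSCs. That of *NANOG* (1846 bp) passed the test in neither direction. The single tiles that hold the starts were not called at *GDF3* (0.26 ± 0.45, limma adjusted p = 0.649) or *DPPA3* (0.11 ± 0.62, limma adjusted p = 0.893). Within 2.5 kb of the start, limma called 3 of 10 tested tiles naive at *GDF3* and 2 of 8 at *DPPA3*, and 0 primed. All tested tiles gave 26.1% and 25.9%, and edgeR called 4 naive at each gene, beside 30.5%. The *DPPA3* fragment had mean log2 RPM values of 0.32 and 0.29 in naive and -1.46, -1.51 and -1.31 in primed libraries. The groups did not overlap, and the difference among all HindIII fragments was 1.73 ± 0.38 (SE, limma adjusted p = 0.00428), or 0.96 with 0.5 RPM added to every value (limma adjusted p = 0.00364). The *GDF3* fragment had 0.42 and 0.48 against -0.61, -0.88 and -0.80, a difference of 1.22 ± 0.36 (limma adjusted p = 0.0187). This call was lost without naive replicate 1 (adjusted p = 0.120 in limma), without naive replicate 2 (0.131) and without primed replicate 3 (0.0607), with differences of 1.18 to 1.25. It was also lost with the replicate number as a block (limma adjusted p = 0.111), and the difference was 0.59 with 0.5 RPM added to every value and 0.59 by edgeR.

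The *NANOG* fragment (chr12:7787796-7789641) had 0.43 and -0.20 in naive and 1.39, 0.28 and 0.59 in primed libraries. The groups overlapped, and the difference of -0.64 ± 0.43 did not pass the test (limma adjusted p = 0.241). The *SLC2A3* fragment (chr12:7932552-7937297) had 0.49 and 0.07 against -0.27, -1.82 and -0.58, a difference of 1.17 ± 0.52 (limma adjusted p = 0.0837). Primed replicate 2 stood apart from the other primed libraries there, and without it the difference was 0.70 (limma adjusted p = 0.104). The test was passed without primed replicate 1 (1.48, limma adjusted p = 0.0244), after equalising the library medians (1.10, limma adjusted p = 0.0294), after quantile normalisation (1.33, limma adjusted p = 0.0321) and by edgeR (0.94, edgeR adjusted p = 0.00222).

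The *SLC2A14* fragment (chr12:7864267-7884404) had -0.53 and -0.39 against -2.03, -1.63 and -2.08, and that of *APOBEC1* (chr12:7664553-7670355) -1.92 and -1.11 against -2.04, -1.63 and -2.04. Both fell under the filter on low values. In 3 of the 4 tested promoter fragments no primed library was above the filter. Counting members, 2 of the 4 were higher in naive and 0 in primed PSCs, with 0 primed at unadjusted p under 0.05 and 0 by edgeR, which called *SLC2A3* as well as the other 2 (3 naive), beside 27.2% and 29.7% of all 44982 fragments tested. Without the filter, 3 of 6 (*GDF3*, *DPPA3* and *SLC2A14*) were higher in naive and 0 in primed PSCs, beside 6.40% and 7.79%, and *SLC2A14* then differed by 1.45 ± 0.45 (limma adjusted p = 0.0121).

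**Figure D5:**
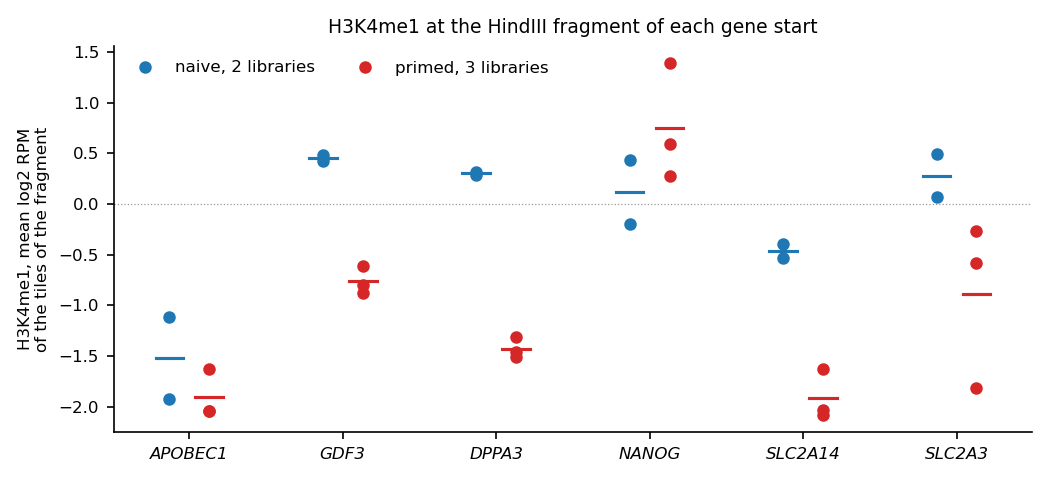
Mean log2 RPM of H3K4me1 over the tiles of the HindIII fragment that holds each gene's start is plotted for the 2 naive (blue) and 3 primed (red) libraries, 1 point per library, with a bar at each group mean. The groups are apart at *GDF3*, *DPPA3*, *SLC2A14* and *SLC2A3* and overlap at *NANOG* and *APOBEC1*.

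The fragments contacted downstream of *NANOG* carried more H3K4me1 in naive PSCs although they were contacted in both cell types. The fragment of 229 bp had log2 RPM values of 0.95 and 0.71 in naive and -0.56, -1.98 and -0.73 in primed libraries, from 1 tile with 2 to 42 reads a library. That tile, chr12:7801001-7801500, extends past the fragment on both sides, so that its reads are not those of the fragment alone. The groups did not overlap, and the difference was 1.92 ± 0.47 among the fragments of the lists (limma adjusted p = 0.00839). It was 1.80 without naive replicate 1 (limma adjusted p = 0.0614). The longer fragment chr12:7802587-7808198 had 0.11 and 0.48 against -0.93, -0.88 and -0.93, a difference of 1.21 ± 0.32 (limma adjusted p = 0.0128). This call was lost without naive replicate 1 (limma adjusted p = 0.0603), without naive replicate 2 (0.140), with the replicate number as a block (0.0725) and after quantile normalisation (0.0551), and the difference was 0.69 with 0.5 RPM added to every value.

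Among the 10 fragments that take part in the contacts, both baits included, 4 passed the filter. These were both baits and the 2 partners just given, and in each of them no primed library was above the filter, so that they could only be called higher in naive PSCs. limma called 4 naive and 0 primed (0 at unadjusted p under 0.05), and edgeR 3 and 0, without the *GDF3* bait (0.38, edgeR adjusted p = 0.158), beside 31.2% and 21.6% of the 8197 listed fragments tested. With naive replicate 1 left out 1 of them passed the test, and with naive replicate 2 left out 2 did. Without the filter 6 of the 10 were higher in naive and 0 in primed PSCs, beside 13.2% and 8.19% of 88413 listed fragments. The added fragments were chr12:7801417-7802586 (1.51 ± 0.37, limma adjusted p = 0.00499) and the naive-only partner chr12:7808199-7815964 (1.43 ± 0.37, limma adjusted p = 0.00824).

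The partners listed in 1 cell type were less uniform. The naive-only partner within *NANOG* had -1.54 and -0.46 in naive and -0.24, -0.08 and -0.38 in primed libraries, a difference of -0.77 ± 0.39 that did not pass the test without the filter (limma adjusted p = 0.188). The primed-only partners of *DPPA3* differed by -0.20 ± 0.39 in *FOXJ2*, 0.62 ± 0.44 at *C3AR1* and 0.29 ± 0.36 at *NECAP1*. None of these 3 passed, with overlapping libraries in each.

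Genes that share a pathway or family with the 6 were counted for comparison. Of 22 pluripotency genes, 15 had a promoter fragment among the baits, with 108 naive and 196 primed contacts in sum, 5 genes with more in naive, 8 with more in primed and 2 with equal numbers. H3K4me1 could be tested at 11 of their promoters, and limma called 2 higher in naive PSCs, *DPPA5* and *DPPA2* (1.86 ± 0.38, limma adjusted p = 0.00319), and 0 in primed PSCs (0 at unadjusted p under 0.05), beside 27.2% and 29.7% of all fragments. At both genes no primed library was above the filter, so that they could only be called higher in naive PSCs. On the recovered reads edgeR called 3 higher in naive PSCs, with the RNA-binding protein gene *LIN28B* as the third (1.27, edgeR adjusted p = 8.16e-04), and *DUSP6* lower (-0.71, edgeR adjusted p = 0.00749). Of 16 genes of NODAL and GDF signalling, to which GDF3 belongs, 8 were baits, with 19 naive and 39 primed contacts in sum. Of these, 4 had more in naive, 3 more in primed and 1 equal numbers, and the sum rested largely on *ACVR2A* (0 and 15) and *LEFTY2* (5 and 13). Of 10 glucose transporter genes 3 were baits, with 11 and 24 contacts. Here 0 had more in naive, 2 more in primed and 1 equal numbers, with *SLC2A2* at 1 and 13. Of 10 genes of the APOBEC family 3 were baits, with 11 and 14, and all 3 had more in primed PSCs. At the promoters of these 3 lists that could be tested (3 NODAL and GDF, 1 transporter and 2 APOBEC fragments), limma called 0 in either direction and 0 at unadjusted p under 0.05. On the recovered reads edgeR called *SMAD3*, a transducer of NODAL signals, lower in naive PSCs (-0.77, edgeR adjusted p = 0.00907), and *APOBEC3F* higher (0.52, edgeR adjusted p = 0.0497). No naive library was above the filter at *DUSP6* and *SMAD3*, and no primed library at *APOBEC3F*. Each could therefore only be called in the direction given.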

How the data were processed

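PCHi-C and Hi-C of naive and primed H9 NK2 PSCs and H3K4me1 CUT&RUN (2 naive and 3 primed libraries) were used, grouped by the cell type in their labels. NANOG, SOX2 and input ChIP-seq libraries were not analysed here. The members and gene lists were chosen with earlier results of these data known.

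For PCHi-C, the authors used HiCUP (GRCh38), merged both replicates of a cell type in CHiCAGO and deposited, per interaction, a CHiCAGO score of at least 5 and a rounded combined read number, which is handled as a score too. The Hi-C files deposited by the authors give counts of di-tags per pair of 100 kb bins without normalisation (31310843 naive and 52056334 primed). The 15 pairs used are listed in both libraries. For H3K4me1, reads were trimmed with Trim Galore (0.5.0) and mapped with Bowtie2 (2.3.2), and the values deposited by the authors are log2 RPM in tiles of 500 bp, from SeqMonk, with an empty tile at 0.9 reads. All values were whole reads within 0.02. Reads across a tile border count in either tile.

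The column that should name the baits holds only a mark, so genes were matched to HindIII fragments of GRCh38 by GENCODE release 44 starts, and all 88413 listed fragments had HindIII ends. An interaction listed from both baits counted once, with its higher score. A fragment's H3K4me1 is the mean log2 RPM of tiles with their middle in it. Tiles and fragments were tested across the genome with limma 3.58.1 (R 4.3.3, eBayes with trend, adjusted p under 0.05, no pseudocount), after a filter of log2 RPM over 0 in 2 or more of the libraries, and with edgeR 4.0.16 on the recovered reads as an alternative. The code was tested on simulated data. Words of 31 bases that occur more than once in GRCh38 were counted as repeated. Genes were named by a rule: the 6 members, neighbours that are baits or partners, partners by score, and the 5 tiles with the largest change in each direction whose libraries do not overlap.

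Same-numbered naive and primed libraries did not deviate together (correlation 0.067 or less), so that no pairing was used. Alternatives changed the filter, the scaling, the score limit, the reads and the libraries included.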

Additional observations from a re-analysis of the deposited data

How the results depend on the processing

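For the 18 fitted H3K4me1 differences at named fragments and tiles (both baits were fitted in 2 sets), none of 201 repeats under another setting changed its sign, and 28 lost the call and 4 gained one. Over all 331 repeats, counts included, 25 values moved. The count of interval tiles higher in naive PSCs, 122, was 196 without a filter and 15 with a log2 RPM above 1 required, where 72 tiles were tested, and 44 to 134 with 1 library left out. The count higher in primed PSCs, 9, was 5 with the stricter filter, 20 with equal medians, 17 after quantile normalisation, 14 by edgeR on recovered reads, a test added after seeing the data, and 3 to 15 with 1 library left out. The cause was not tested, other than that a stricter filter tests fewer tiles and leaving out a library fewer samples. With the stricter filter, the share higher in naive PSCs, 15 of 72, was no longer above that of all tested tiles (22.8%). The share higher in primed PSCs, 5 of 72, stayed below that of all tested tiles (27.3%). The median difference of the 72 tiles was 0.31, beside -0.04 for all tested tiles. Equal medians lowered every difference by 0.13 at tiles, 0.24 at listed fragments and 0.07 at all HindIII fragments. With the replicate number as a block, 90 tiles were higher in naive and 4 in primed PSCs, and 2 contact fragments, in place of 4, were higher in naive PSCs. The libraries share only a number (correlations of -0.067 to 0.067), and with a library left out 1 to 4 contact fragments passed. The stricter filter left no contact fragment to test.

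The interval mean difference of 0.78 was 0.65 with equal medians (two-sided exact permutation p = 0.200), 0.74 with the replicate block and 0.56 to 1.00 with 1 library left out. The share of naive contacts also listed in primed PSCs, 70.0%, was 100% at a score of at least 10, where 2 naive and 3 primed contacts were left, and 100% with both ends within 10 kb. The naive over primed ratio of contacts, 1.00, was 0.83 at a score of at least 7, 0.67 at 10 and 1.25 with equal numbers of interactions, so that its side of 1 depended on the setting, and the Hi-C ratio of 0.93 was 0.87 when scaled by contacts between chromosomes. Contacts with few reads near a score of 5, the single list and Hi-C library per cell type, and fragments covered by 1 or 2 tiles limit what these data can show.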
